A study of Mus musculus with 13 samples.

Results

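The clustered protocadherins are cell-surface adhesion proteins of the cadherin superfamily whose genes lie in 3 neighbouring arrays, alpha, beta and gamma, on mouse chromosome 18. Their genes were taken here as every mouse gene whose symbol begins with Pcdha, Pcdhb or Pcdhg followed by a letter or digit. This gave 58 genes, 14 in the alpha, 22 in the beta and 22 in the gamma cluster. A total of 40 of them were assigned at least 1 peak by the authors' annotation, of 22481 genes named in any of the peak lists, and 112 of the 533196 peaks belonged to them. In the alpha cluster 11 genes were named, in the beta cluster 7 and in the gamma cluster 22.

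In neurons, each alpha and gamma variable exon has its own promoter, and the chosen variable exon is spliced to constant exons at the 3′ end of its cluster. The beta genes have no such constant exons. Promoters of the alternate isoforms (the A- and B-type genes and all beta genes) are known to be chosen at random in single neurons, through CTCF, cohesin and looping to distal enhancers, and the combination of isoforms gives a neuron a surface identity used in self-recognition. The C-type genes, Pcdhac1, Pcdhac2, Pcdhgc3, Pcdhgc4 and Pcdhgc5, lie last in the alpha and gamma clusters and are generally not subject to this random choice. In the olfactory system clustered protocadherins take part in the wiring of sensory axons.

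The data are chromatin immunoprecipitation with sequencing (ChIP-seq) on wild-type C57BL6 mouse olfactory basal cells. These precursors of the sensory neurons were sorted from adult olfactory epithelium by the receptor c-KIT and grown attached to gelatin with EGF, FGF2, heparin, BMP4 and SB431542. The 4 antibodies were against 2 subunits of Polycomb repressive complex 1 (PRC1) and 2 histone modifications. RING1B is the ubiquitin ligase of PRC1 and CBX8 a chromodomain subunit of it. H3K27me3 is written by Polycomb repressive complex 2, and H3K27ac is typical of active enhancers and promoters. Each antibody had 2 libraries from different cultures of 3 cell lines, all untreated, and 5 inputs belong to the series. Line 1 at passage 12 gave replicate 1 of H3K27me3 and of RING1B. Line 2 gave H3K27me3 replicate 2 at passage 11, H3K27ac replicate 1 at passage 13, and both RING1B replicate 2 and CBX8 replicate 1 at passage 19. Line 3 at passage 14 gave replicate 2 of CBX8 and of H3K27ac. Replicates of an antibody therefore differ in line and passage, and a difference between them cannot be told apart from a difference between cultures. The cells lack the epithelium around them, and whether a line is a single clone is not given in the sources used here.

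The peak lists differed in length within an antibody. The lengths, replicate 1 first, were 68898 and 101129 peaks of H3K27me3, 7578 and 32918 of RING1B, 9926 and 77417 of CBX8, and 123155 and 112175 of H3K27ac. Every list value used is the authors' own fold enrichment of a peak, given only for peaks in the list, so a gene without a peak has no fold rather than a fold of 0. Read depth is unknown, no test between libraries was made, and folds were read only against other peaks of the same list. Of 10 fixed basal and progenitor genes, 6 had an H3K27ac promoter peak in both libraries, with folds of 23.6 and 23.9 at Sox2 and of 11.4 and 10.5 at Krt5. This share was near the 55.7% of all genes named in the lists, so the count does not check the cell type. Kit itself had H3K27me3 folds of 4.70 and 4.05, RING1B folds of 10.4 and 5.12, and H3K27ac in replicate 2 alone, at 2.45. Of 5 immature neuron genes 0 were acetylated in both libraries and 4 were methylated in both, while Omp and Adcy3 of 5 mature neuron genes, Krt8 and Krt18 of 5 sustentacular genes and 0 of 5 immune and vessel genes were acetylated in both. Over all named genes, 55.7% were acetylated and 20.7% methylated in both libraries.

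The 3 clusters differed in which marks they carried. H3K27ac promoter peaks were found at gamma genes only, at 11 of 22 in replicate 1 and 17 of 22 in replicate 2, with 9 genes in both, whereas 0 of 14 alpha and 0 of 22 beta genes had any in either library. H3K27me3 lay at the C-type end of the alpha cluster in both libraries and at the 5′ gamma genes mainly in replicate 2. RING1B was shared by both libraries at just Pcdhac2 and Pcdhgc3, and CBX8 at just Pcdha3 and Pcdhgb7. Beta promoters were nearly bare, as 20 of 22 beta genes had no promoter peak of any antibody, against 5 of 14 alpha and 0 of 22 gamma genes. The share of all genes without any promoter peak was not computed, and 15 of the 22 beta genes were named in no list. A promoter peak here is a peak at an absolute distance of 2000 bp or less from the annotated start.

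**Figure D1:**
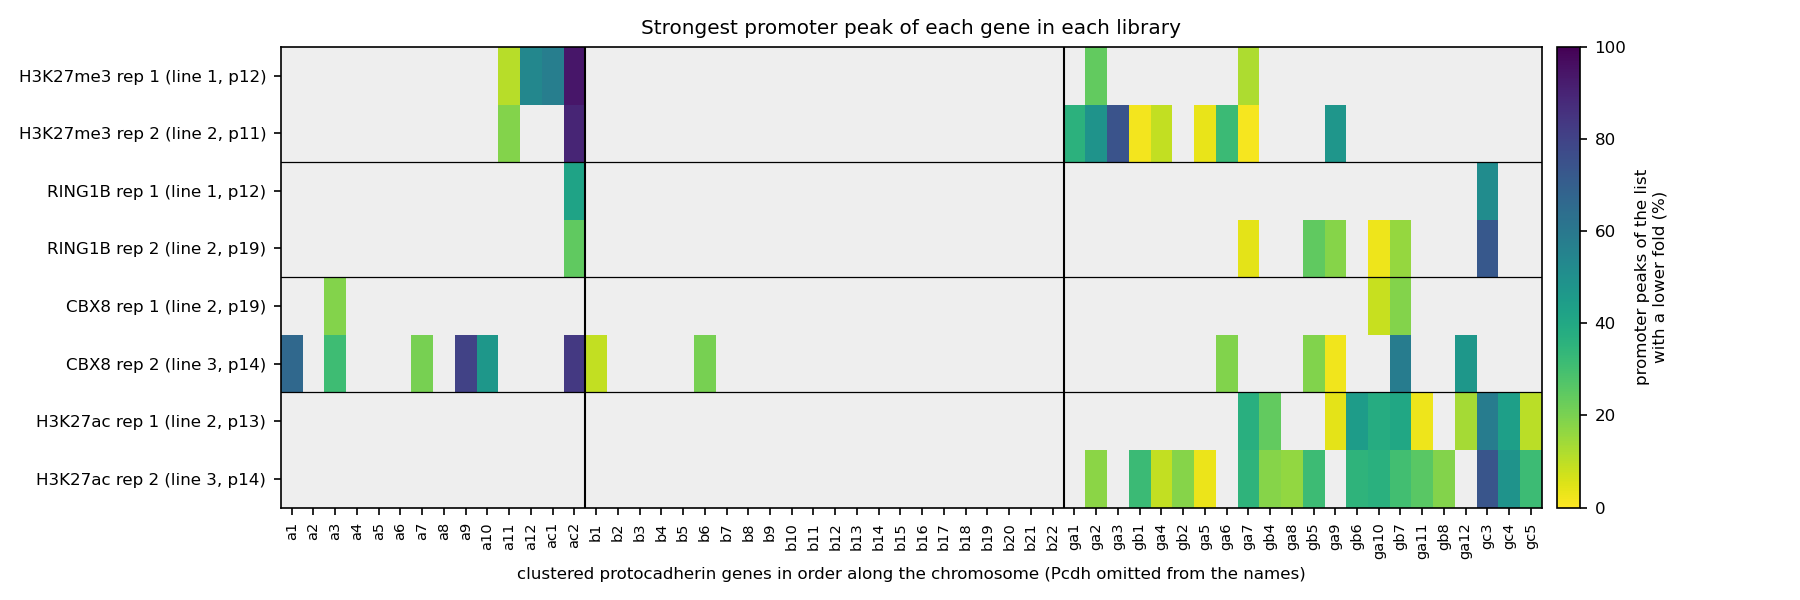
Promoter peaks of the 58 genes, in chromosomal order along the x axis, in the 8 libraries along the y axis (p, passage). Colour gives the percentage of promoter peaks in the same list with a lower fold than the gene's strongest promoter peak, and grey means that no peak was listed. H3K27ac fills only gamma genes, Pcdhac2 holds the darkest H3K27me3 cells at 93.8% and 89.5%, and the beta block holds just 2 coloured cells, both in CBX8 replicate 2.

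The counts in both libraries were read beside those of all genes named in the lists. An H3K27ac promoter peak in both libraries was present at 55.7% of the 22481 named genes (59.8% in replicate 1 and 61.1% in replicate 2), and at 22.5% of the 40 named members. Within the gamma cluster the share was 40.9%, from 9 of 22 genes, all of which were named. For H3K27me3, 4 members had a peak in both libraries, which is 10% of those named against a background of 20.7% (27% in replicate 1, 30.4% in replicate 2). RING1B in both libraries covered 2 members, or 5% of those named, against 12.8% of all named genes (13.7% and 44.5% in the single libraries). CBX8 in both libraries also covered 2 members against 6.29% (8.12% and 27.4%), and their share was near this background. In single libraries, replicate 1 first, the shares of named members were 15% and 27.5% for H3K27me3 and 5% and 17.5% for RING1B. They were 7.5% and 32.5% for CBX8 and 27.5% and 42.5% for H3K27ac. A member is named only if it has a peak, so these shares leave out the 18 genes without any, 3 alpha (Pcdha2, Pcdha4 and Pcdha5) and 15 beta.

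The alpha cluster spans chr18:36930285-37188897 of mm10 (258.613 kb), with Pcdha1 first and the C-type genes Pcdhac1 and Pcdhac2 last. Its most marked promoter was that of Pcdhac2, whose RefSeq extent is chr18:37143678-37187663. H3K27me3 gave a fold of 4.69 in replicate 1 over 3656 bp and of 4.25 in replicate 2 over 4423 bp, and both peaks covered the start. The shared stretch, chr18:37142061-37145339, was 3279 bp long, the longest region shared by both libraries of an antibody among the members. For comparison, the median H3K27me3 peak was 681 bp wide in the list of replicate 1 and 885 bp in that of replicate 2. Pcdhac2 ranked above 93.8% and 89.5% of the promoter peaks of these lists, higher than any other member in either H3K27me3 library.

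Pcdhac2 was also the sole member with a promoter peak of H3K27me3 and of RING1B in both libraries. RING1B had a fold of 5.37 in replicate 1, at chr18:37144122-37144281, and of 4.21 in replicate 2, at chr18:37143960-37144163. These peaks shared 42 bp and lay wholly within the H3K27me3 peaks. In their lists they were of low to middling strength, above 41.8% and 24.3% of RING1B promoter peaks. CBX8 covered the annotated start in replicate 2 with a fold of 8.09 over 964 bp, with a second peak of fold 4.05 at 1000 bp downstream. That start lies 291 bp after the RefSeq start. The stronger peak was above 83.3% of the promoter peaks of that list and had the highest CBX8 fold of any member. CBX8 replicate 1 listed no peak at Pcdhac2, and neither did H3K27ac in its 2 libraries. PRC1 at this promoter thus rests on both RING1B libraries and on 1 of 2 CBX8 libraries.

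Upstream of Pcdhac2, H3K27me3 was weaker and less repeatable. Pcdhac1, the other alpha C-type gene, had an H3K27me3 peak of fold 3.24 across its start in replicate 1 and none in replicate 2. Pcdha11, an alternate isoform, had folds of 2.79 and 2.58, in peaks that shared 364 bp. These ranked above 10.7% and 18.4% of promoter peaks in their lists. Pcdha12 had a fold of 3.20 in replicate 1 alone. Pcdha12, like every further gene named below other than Pcdha1, Pcdha3, Pcdhb1, Pcdhb22, Pcdhga1, Pcdhga2, Pcdhga7, Pcdhga10, Pcdhgb6, Pcdhgb7, the C-type genes and the neighbours Slc25a2, Taf7 and Diaph1, was chosen for mention after its values were seen. The 4 methylated alpha promoters of replicate 1 were thus the last 4 of the cluster, Pcdha11, Pcdha12, Pcdhac1 and Pcdhac2. In replicate 2 the methylated promoters were Pcdha11 and Pcdhac2, also from that end.

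Within the alpha constant region, H3K27me3 marked the 3′ untranslated region annotated to Pcdhac2 in both libraries. Its folds were 3.01 and 2.60, and the shared stretch was chr18:37185462-37185921, 460 bp long. Since the alpha transcripts end together, this stretch belongs to the 3′ exon that the alpha genes share and not to Pcdhac2 alone. Other H3K27me3 peaks of the region were listed in single libraries, at exons of 2.81 (replicate 1) and 2.87 (replicate 2) fold. In all, H3K27me3 covered 2.70% and 2.60% of the alpha span and 1.74% in both libraries, against 3.09%, 7.18% and 2.28% of chromosomes 1 to 19 and X.

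CBX8 at the alternate alpha promoters came almost wholly from replicate 2. Pcdha3 was the exception, with a fold of 4.94 in replicate 1 and 4.60 in replicate 2, in peaks of 147 and 156 bp that shared 64 bp. Pcdha1 had 5.89 in replicate 2, at 83 bp from its start, and no peak in replicate 1. Pcdha7, Pcdha9 and Pcdha10 had 4.41, 7.36 and 5.15 in replicate 2, again with none in replicate 1. The Pcdha9 peak ranked above 80.5% of promoter peaks in its list, while Pcdha3 ranked above 18.7% and 31.0%. No RING1B library listed a peak at these 5 genes. Before the start of Pcdha8, replicate 2 listed 3 further CBX8 peaks, the strongest with a fold of 7.26 over 391 bp. After that of Pcdha12, a CBX8 peak of fold 4.58 shared 135 bp with an H3K27ac peak of replicate 1, of fold 3.26 and 161 bp. This and a peak of fold 2.43 at 25758 bp from the same start were the only H3K27ac peaks assigned to alpha genes, and both were absent from replicate 2. CBX8 replicate 2 is the longer of the CBX8 lists and the only one from line 3, and of its 7 alpha peaks away from promoters 0 had a partner in replicate 1. Per 100 kb it held 5.03 peaks in the alpha span, 4.68 in the beta span and 3.89 in the gamma span, against 2.95 over chromosomes 1 to 19 and X.

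The beta cluster, chr18:37264998-37521419 (256.422 kb), holds the genes without shared constant exons. H3K27ac and RING1B had no peak in this span in any of their libraries. Regions shared by both libraries were absent for CBX8 and H3K27me3 as well. H3K27me3 replicate 1 listed no peak in the span, and replicate 2 listed a single peak of 198 bp and fold 2.49, at −8585 bp from the start of Pcdhb9, which left 0.0772% of the span covered. At Pcdhb1, the first gene, CBX8 replicate 2 gave a fold of 4.05 at 659 bp from the start, and at Pcdhb6 a fold of 4.41 at 162 bp. Those were the 2 beta promoters with any promoter peak.

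Away from promoters CBX8 replicate 2 listed 12 peaks assigned to beta genes, with folds of 4.05 to 5.89. Of these 10 lay inside the beta span and 2 upstream of Pcdhb1, between the alpha and beta clusters. Their widths began at 137 bp, the narrowest of the members in that list, and 7 of them lay in the stretch between Pcdhb8 and Pcdhb9. Upstream of Pcdhb1, a CBX8 peak of replicate 2 (fold 5.52, at −11039 bp) shared 137 bp with an H3K27me3 peak of replicate 2 (fold 3.61). These libraries come from lines 3 and 2. For Pcdhb22, the last gene, H3K27me3 replicate 1 gave 2.81 at 26317 bp downstream and CBX8 replicate 2 gave 4.78 at 2090 bp, just outside the promoter window. The authors' annotation measures Pcdhb22 from a start 4701 bp before its RefSeq start, at the start of Pcdhb21, so the latter peak lies nearer to Pcdhb21.

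**Figure D2:**
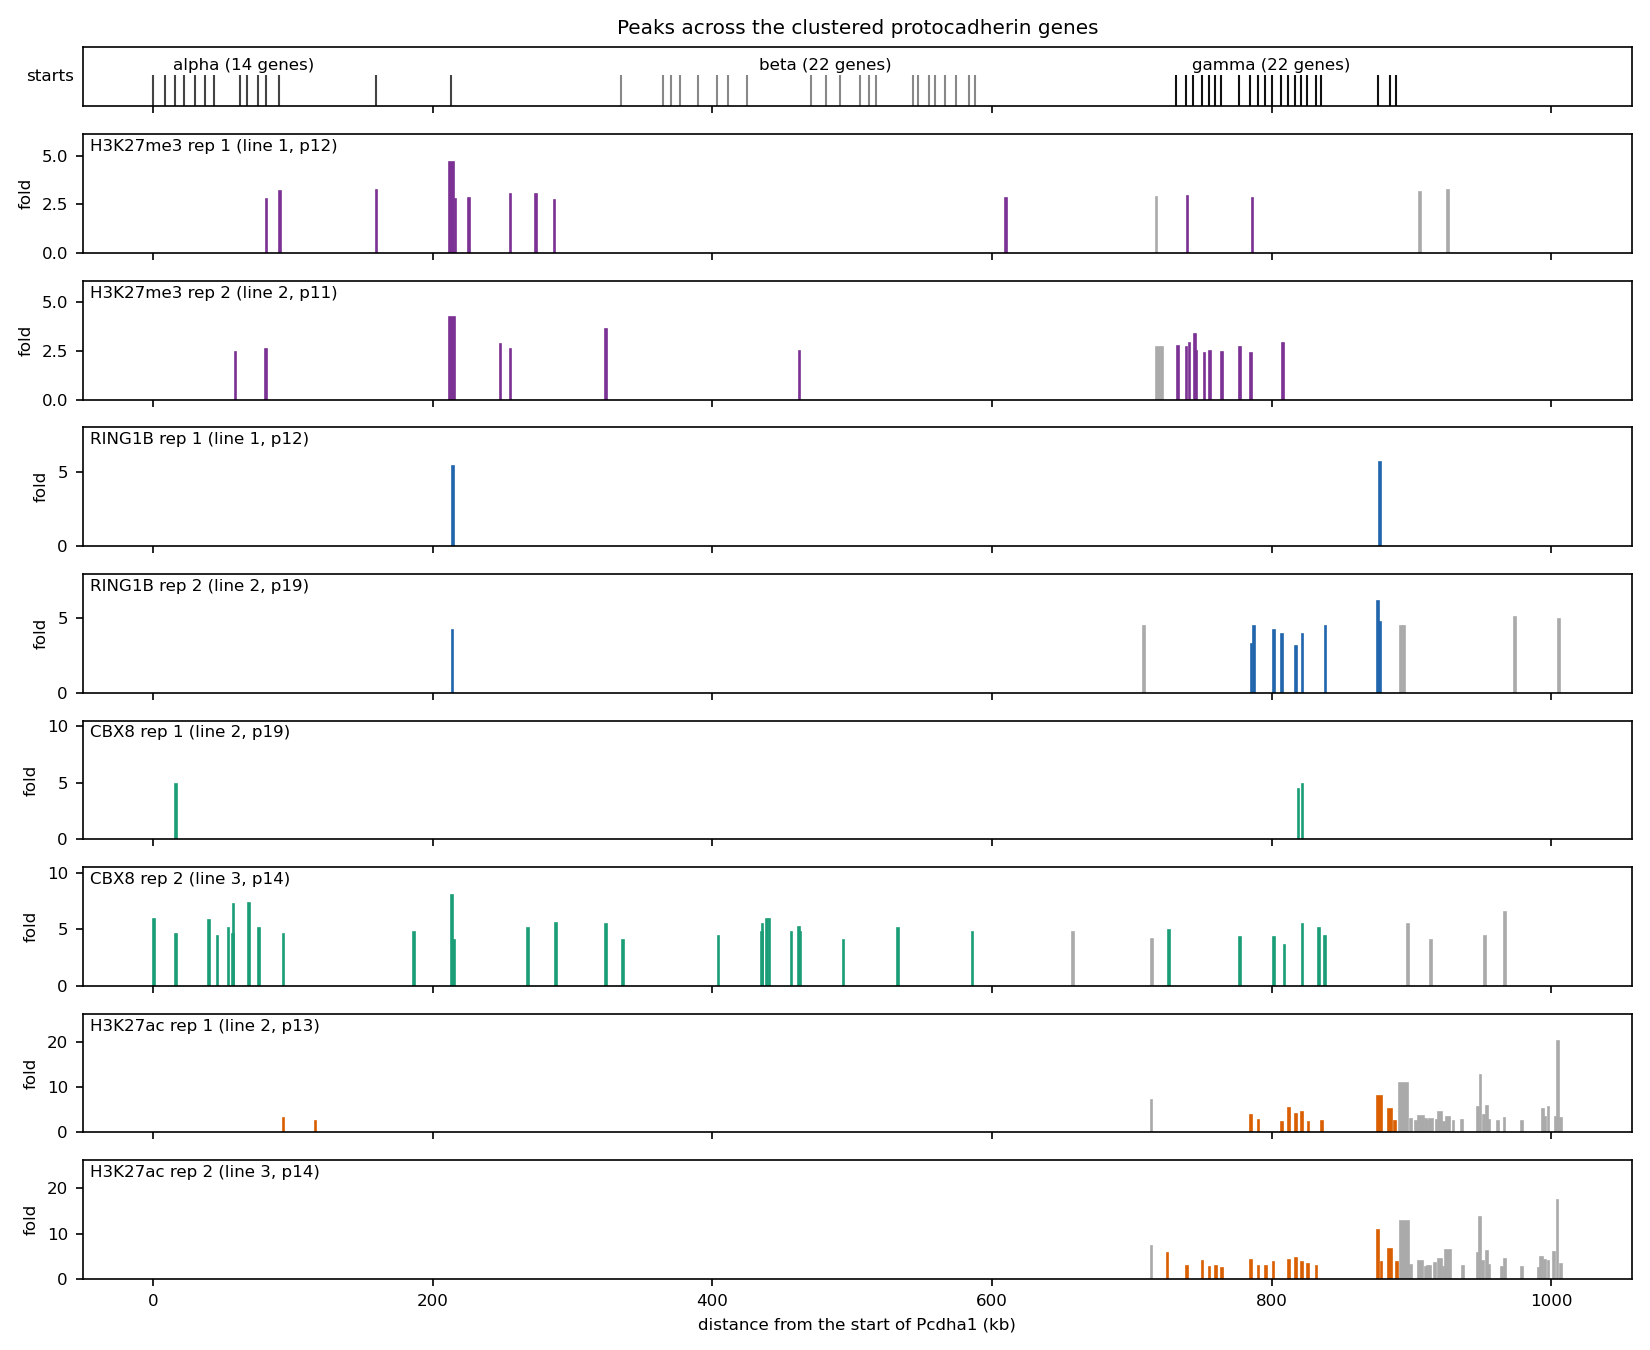
Peaks of the 8 libraries along the 3 clusters, by distance in kb from the start of Pcdha1 (x axis), with bar height giving the authors' fold (y axis, a scale per antibody) and the top row marking gene starts. Coloured bars are peaks assigned to the 58 genes, grey bars are peaks assigned to other genes, and the narrowest peaks are drawn wider than they are. The beta genes stand over nearly empty H3K27me3, RING1B and H3K27ac tracks, and the tallest H3K27ac bars lie in the 3′ part of gamma and beyond it.

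The gamma cluster, chr18:37661775-37841873 (180.099 kb), held all the acetylated promoters among the members. H3K27ac covered 13.2% and 12.4% of its span, and 9.60% in both libraries, against 6.35%, 5.79% and 4.25% of chromosomes 1 to 19 and X and 5.36%, 4.80% and 3.36% of chromosome 18. These shares count peaks of any assignment. Peaks assigned to the gamma genes alone covered 5.34% and 6.11% of the span, and peaks assigned to Gm38667 and Mir6979, in the 3′ part of the cluster, covered 7.90% and 6.28%. The alpha span had 0.171% in replicate 1 and 0 in replicate 2, and the beta span had 0 in each. The acetylated gamma promoters had low folds within their lists. The median fold of the members' promoter peaks was 3.83 and 3.78, while that of all promoter peaks in these lists was 6.54 and 6.90.

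The gamma C-type genes ranged from the strongest acetylated promoter of the cluster to a weak one. Pcdhgc3, at chr18:37806410-37841873, had H3K27ac folds of 7.99 and 10.9, the highest of any member, in peaks of 3371 and 1528 bp that both covered the start. It ranked above 58.2% and 73.8% of promoter peaks, the only gamma gene above the middle of its lists in both. Pcdhgc4 had 5.13 and 6.61, the next highest in replicate 2 but below Pcdhgb6 in replicate 1, in peaks of 2623 and 2391 bp sharing 2353 bp, at ranks of 43.6% and 48.7%. Pcdhgc5, the last gene, had 2.48 in replicate 1 and 3.83 in replicate 2. Its peaks did not overlap, since the former ended at −1541 bp from the start and the latter, 1414 bp wide, covered the start.

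Among the alternate gamma genes, some were acetylated in both libraries, and others in replicate 2 alone or in replicate 1 alone. Pcdhga7 had folds of 3.83 and 4.28, Pcdhgb6 had 5.43 and 4.25, Pcdhga10 had 4.0 and 4.53, and Pcdhgb7 had 4.43 and 3.73. Pcdhgb4 (2.85 and 2.89) and Pcdhga11 (2.32 and 3.32) were lower, and the peaks of each of these 6 genes overlapped between libraries, by 41 bp at Pcdhga11 and by 135 to 405 bp at the others. All 6 lie in the 3′ part of the alternate array, from Pcdhga7 onward. In replicate 2, from line 3, peaks were listed also at Pcdhga2 (2.86), Pcdhgb1 (3.90), Pcdhga4 (2.56), Pcdhgb2 (2.90) and Pcdhga5 (2.39), which lie upstream of Pcdhga7 and had none in replicate 1, from line 2. Replicate 2 alone further listed Pcdhga8 (2.81), Pcdhgb5 (3.84) and Pcdhgb8 (2.90), a transcribed pseudogene, and replicate 1 alone listed Pcdhga9 (2.35) and Pcdhga12 (2.55). Pcdhga1, Pcdhga3 and Pcdhga6 had none in either library.

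H3K27me3 in the gamma cluster was concentrated at its 5′ end, and mostly in replicate 2. That library, from line 2, had promoter peaks at 9 gamma genes, with folds of 2.76 at Pcdhga1, 2.91 at Pcdhga2, 3.37 at Pcdhga3, 2.39 at Pcdhgb1, 2.49 at Pcdhga4, 2.44 at Pcdhga5, 2.72 at Pcdhga6, 2.39 at Pcdhga7 and 2.89 at Pcdhga9. Replicate 1, from line 1, listed Pcdhga2 at 2.90 and Pcdhga7 at 2.81 only. At Pcdhga2 a further replicate 2 peak, of fold 2.69, shared 163 bp with that of replicate 1, whereas the peaks of Pcdhga7 lay 1254 bp and 1 bp from the start and did not overlap. Their ranks in replicate 2 were spread, as Pcdhga7, Pcdhgb1, Pcdhga5 and Pcdhga4 were above 1.5%, 1.6%, 3.2% and 9.0% of promoter peaks. Pcdhga6, Pcdhga1, Pcdhga9 and Pcdhga2 were above 31.8%, 35.7%, 47.4% and 48.8%, and Pcdhga3 above 74.5%. Whether the difference between the libraries reflects the lines or the longer list of replicate 2 was not tested.

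In the stretch from Pcdhga1 to Pcdhga6, 51.059 kb long with boundaries drawn after the values were seen, H3K27me3 covered 13.9% in replicate 2 and 0.956% in replicate 1. H3K27ac covered 0 in replicate 1 and 2.34% in replicate 2 of the same stretch. Over chromosomes 1 to 19 and X, H3K27me3 covered 7.18% in replicate 2 and 3.09% in replicate 1. Its shares of the whole gamma span, 5.16% and 0.691%, were below these. From Pcdhga7 to Pcdhga12 the H3K27me3 share was 0.629% and 2.41% and the H3K27ac share 3.78% and 3.69%. From Pcdhgc3 to the end of the cluster, 37.464 kb, H3K27ac covered 54.4% and 47.4%, and 41.8% in both, with H3K27me3 at 0.483% and 0. Peaks assigned to the C-type genes made up 6.149 and 6.426 kb of this acetylated stretch, and 14.231 and 11.319 kb were in peaks that the authors assigned to Gm38667 and Mir6979, downstream of the Pcdhgc5 start. The H3K27ac shares were thus highest from Pcdhgc3 to the cluster end in both libraries, and the H3K27me3 share of replicate 2 was highest at the opposite end.

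**Figure D3:**
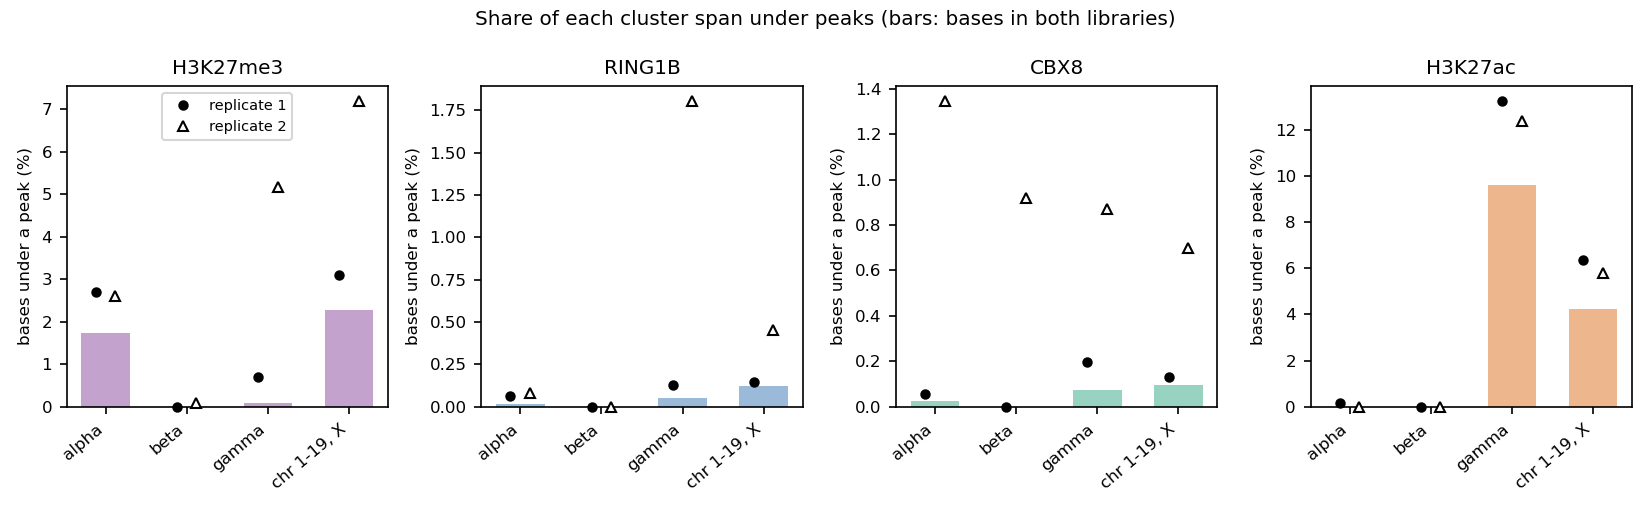
Percentage of bases under a peak, whichever gene it was assigned to (y axis), in the alpha, beta and gamma spans and over chromosomes 1 to 19 and X (x axis), for each antibody on its own scale. Bars give bases under peaks of both libraries, filled circles replicate 1 and open triangles replicate 2. H3K27ac in the gamma span reaches 13.2% and 12.4%, above 6.35% and 5.79% over the chromosomes, while the beta span sits at or near 0 for every antibody but CBX8 replicate 2.

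Line 2 gave both an H3K27me3 list (replicate 2, passage 11) and an H3K27ac list (replicate 1, passage 13), so the marks could be set side by side within a line. Of the 22 gamma genes, 7 had an H3K27me3 promoter peak alone, 9 an H3K27ac promoter peak alone, 2 had both and 4 neither. Among all named genes, 30.4% had an H3K27me3 promoter peak in replicate 2 and 59.8% an H3K27ac promoter peak in replicate 1. The shares of all named genes with either mark alone, both or neither were not computed, so this split has no background. The 7 methylated genes were Pcdhga1, Pcdhga2, Pcdhga3, Pcdhgb1, Pcdhga4, Pcdhga5 and Pcdhga6, at the 5′ end. The 9 acetylated genes were Pcdhgb4, Pcdhgb6, Pcdhga10, Pcdhgb7, Pcdhga11, Pcdhga12, Pcdhgc3, Pcdhgc4 and Pcdhgc5, all farther 3′. Pcdhga7 and Pcdhga9 carried both, and Pcdhgb2, Pcdhga8, Pcdhgb5 and Pcdhgb8 neither. Only at Pcdhga7 did the bases of the peaks coincide, over 324 bp.

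Against H3K27ac of line 3 the picture differed. With H3K27me3 replicate 2 the count of gamma genes with both marks was 5, namely Pcdhga2, Pcdhgb1, Pcdhga4, Pcdhga5 and Pcdhga7. The share of all named genes with both marks was not computed for this pair of libraries either. The bases coincided at Pcdhga2 (307 bp), Pcdhga5 (202 bp) and Pcdhga7 (324 bp). No H3K27me3 list comes from line 3, so the state of these promoters in that line was not analysed here. A ChIP library averages over many cells and both alleles, so marks in different cells and marks on the same allele cannot be told apart, nor can a promoter marked in few cells from a promoter marked weakly in all.

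Where the peaks lay relative to the authors' annotated start also differed by mark. H3K27ac peaks of gamma promoters covered that start in 7 of 11 cases in replicate 1 and in 13 of 18 in replicate 2. These counts depend on the start used. At Pcdhga1, Pcdhga2, Pcdhgb1, Pcdhga4, Pcdhga5, Pcdhga6, Pcdhgb4, Pcdhgb5, Pcdhga10 and Pcdhgb7 it lay 126 to 186 bp downstream of the RefSeq start. From RefSeq starts, the replicate 2 peaks of Pcdhga2, Pcdhga4, Pcdhga5, Pcdhgb4, Pcdhgb5, Pcdhga10 and Pcdhgb7 no longer cover the start. That of Pcdhgb1 then does, and in replicate 1 that of Pcdhgb4 no longer does. The H3K27me3 peaks of replicate 2 covered the annotated start in 2 of 11 cases and lay wholly downstream in 9, with median edges at 553 and 1003 bp. The 2 peaks of replicate 1 lay downstream too. In the full lists, 43.8% and 50.9% of H3K27me3 promoter peaks and 66.5% and 68.0% of H3K27ac promoter peaks were at distance 0. Start sites in this cluster have a median spacing of 5330 bp, and at the shortest gap, 3779 bp, the windows of neighbouring genes overlapped.

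**Figure D4:**
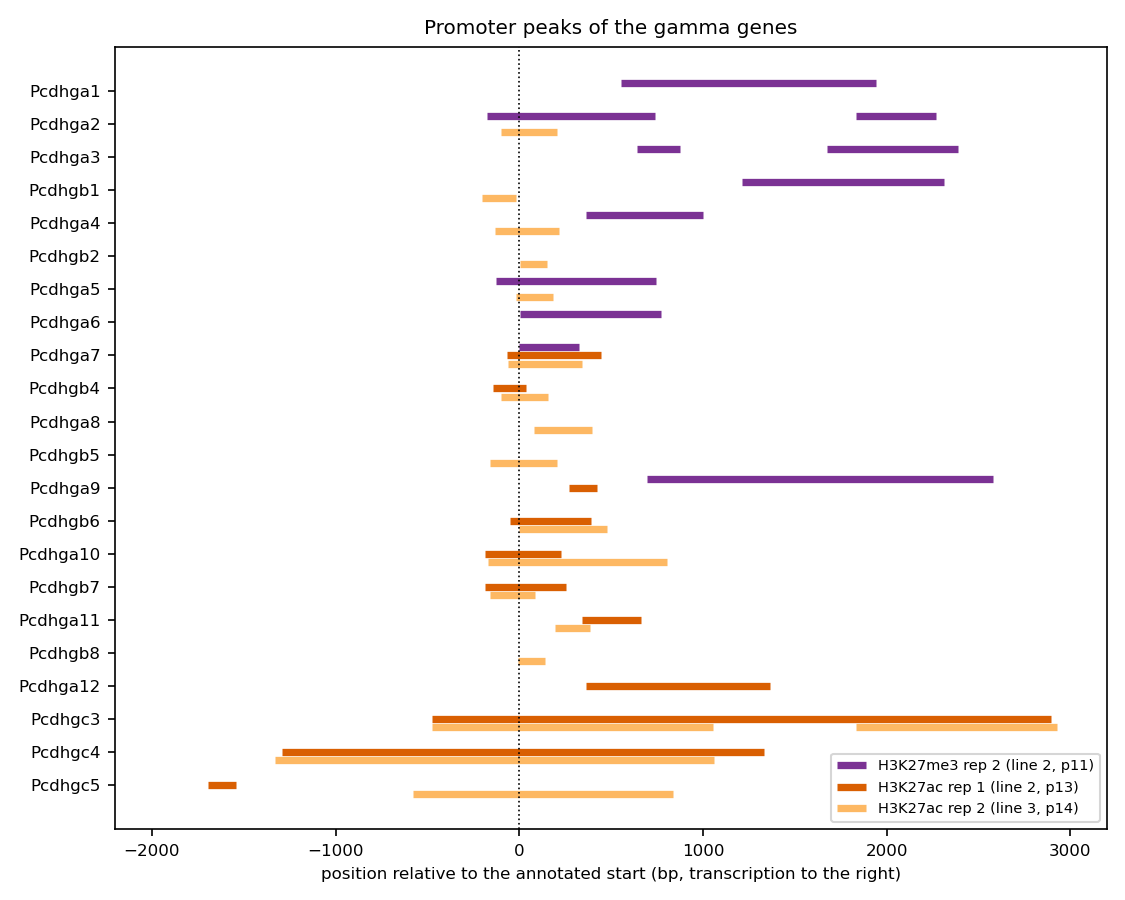
Promoter peaks of the 22 gamma genes, from Pcdhga1 at the top to Pcdhgc5 at the bottom, drawn as bars by position in bp from the annotated start (x axis, 0 is the start). Purple bars are H3K27me3 replicate 2, dark orange H3K27ac replicate 1 and light orange H3K27ac replicate 2. Purple bars occupy the upper genes and lie mostly right of the start, and 7 of 11 dark orange and 13 of 18 light orange bars cross it. The annotated starts of some of these genes lie up to 186 bp downstream of their RefSeq starts.

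PRC1 peaks in the gamma span numbered 0.555 and 6.11 per 100 kb for RING1B, against 0.290 and 1.26 over chromosomes 1 to 19 and X, and 1.11 and 3.89 for CBX8, against 0.376 and 2.95. RING1B covered 0.127% and 1.80% of the span, against 0.147% and 0.453% of those chromosomes, and most of these peaks came from the longer list of each antibody. The span is dense in starts, with a median spacing of 5330 bp. Counted by gene, RING1B promoter peaks were at 4.55% and 27.3% of gamma genes, below the 13.7% and 44.5% of all named genes. CBX8 promoter peaks were at 9.09% and 22.7% of gamma genes, against 8.12% and 27.4%. Pcdhgc3 was the sole gamma gene with RING1B in both libraries, with folds of 5.68 at chr18:37807108-37807336 and 6.14 at chr18:37806018-37807197. These were at ranks of 51.4% and 72.3% among RING1B promoter peaks, and a second peak of replicate 2 had 4.75. Both stronger peaks lay wholly inside H3K27ac peaks of replicates 1 and 2, and no CBX8 or H3K27me3 promoter peak was listed at Pcdhgc3. RING1B therefore marked an acetylated C-type promoter in gamma and a methylated C-type promoter, Pcdhac2, in alpha.

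RING1B replicate 2 alone had peaks at Pcdhga7 (3.27), Pcdhgb5 (4.21), Pcdhga9 (3.97), Pcdhga10 (3.12) and Pcdhgb7 (3.91). Their ranks were between 2.5% and 24.3%. None of the genes from Pcdhga1 to Pcdhga6, where H3K27me3 of replicate 2 was concentrated, had a RING1B peak in either library. RING1B of replicate 2 and H3K27me3 of replicate 2 both come from line 2, at passages 19 and 11.

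CBX8 was shared by both libraries at Pcdhgb7, an alternate isoform, with folds of 4.94 and 5.52 in peaks sharing 136 bp. The RING1B peak of replicate 2 at this gene overlapped the CBX8 peaks by 77 and 218 bp and the H3K27ac peaks by 219 and 86 bp. Pcdhgb7 thus carried CBX8, H3K27ac and, in 1 of 2 libraries, RING1B, without an H3K27me3 peak. Pcdhga10 had CBX8 in replicate 1 alone, at 4.45 and 1733 bp from its start. In replicate 2 alone Pcdhga6 and Pcdhgb5 had 4.36 each, Pcdhga9 had 3.59 and Pcdhga12 had 5.15. No member had a promoter peak in both libraries of RING1B and also in both of CBX8. With any library of each, 5 members did, namely Pcdhac2, Pcdhgb5, Pcdhga9, Pcdhga10 and Pcdhgb7. The RING1B and CBX8 peaks overlapped at Pcdhac2, Pcdhgb5 and Pcdhgb7 only. At Pcdhga9 they lay 258 and 1945 bp from the start, and at Pcdhga10 90 and 1733 bp. The share of all named genes with promoter peaks of both proteins was not computed, so these counts have no background.

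Within their lists the members' peaks were of mixed strength, with 63 of 112 at or under the median fold of their own list. By library these were 9 of 12 and 11 of 18 for H3K27me3, 2 of 2 and 8 of 10 for RING1B, 3 of 3 and 17 of 35 for CBX8, and 6 of 13 and 7 of 19 for H3K27ac. At a −log10 q of at least 5, the members held 0 and 1 H3K27me3 peaks, where 1.17% and 2.03% of the lists passed. For RING1B 2 of 2 and 2 of 10 passed, against 83.6% and 59.4% of the lists, and for CBX8 0 of 3 and 19 of 35, against 56.0% and 48.8%. For H3K27ac 6 of 13 and 10 of 19 passed, or 46.2% and 52.6%, against 32.3% and 39.6% of the lists. In CBX8 replicate 2 many of the folds were equal to each other, as 5 of 35 peaks had 4.78, which is also the list's median, and 5 had 5.15. Near the edge of the promoter window, the CBX8 peaks of Pcdha7 at 1993 bp and Pcdhga9 at 1945 bp counted as promoter peaks, while those of Pcdhb22 at 2090 bp and Pcdhb11 at 2095 bp did not, nor did an H3K27me3 peak of Pcdhac2 at 2096 bp and a RING1B peak of Pcdhga7 at 2113 bp.

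The 13 non-clustered protocadherins, whose genes lie outside the 3 arrays, carried more of these promoter peaks for their number than the clustered ones. These are counts without a test. The list includes Cdhr1, and also Pcdh1, which is counted among the neighbours of the clusters as well. H3K27me3 promoter peaks of both libraries were present at 8 of 13, RING1B at 4, CBX8 at 5 and H3K27ac at 6, against 4, 2, 2 and 9 of the 58 clustered genes. All 13 were named in a list, but only 40 of the 58. As shares of named genes these were 61.5%, 30.8%, 38.5% and 46.2%, against 10%, 5%, 5% and 22.5%. Over all named genes the shares were 20.7%, 12.8%, 6.29% and 55.7%. For H3K27ac the gamma genes alone stood at 40.9%. Pcdh19, for example, had RING1B folds of 13.5 and 12.3 and Pcdh17 H3K27me3 folds of 4.69 and 5.22. Olfactory receptor genes, the other large family of random promoter choice in this lineage, were named in 532 of 1106 cases. Of those named, 62 (11.7%) had H3K27me3 and 20 (3.76%) had H3K27ac in both libraries, while RING1B had 0 and CBX8 had 1 (0.188%). All 4 shares were below those of all named genes.

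**Figure D5:**
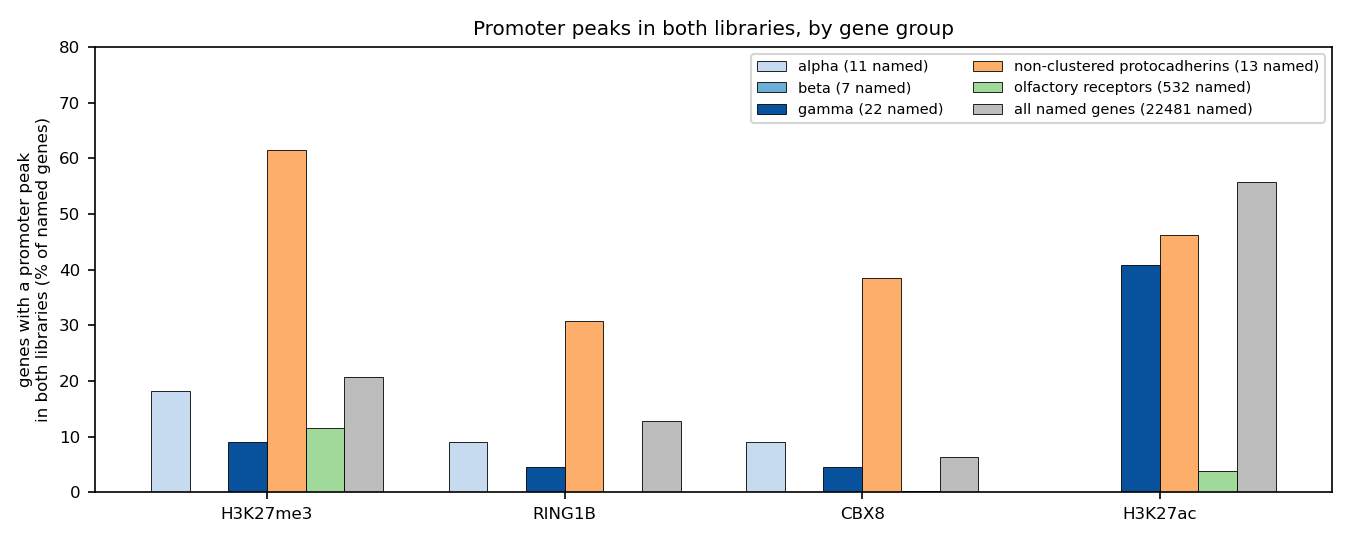
Percentage of named genes with a promoter peak in both libraries (y axis), by antibody (x axis), for the alpha, beta and gamma genes, 2 comparison families and all named genes. Beta has no bar for any antibody. Gamma stands at 40.9% for H3K27ac against 55.7% of all named genes, and the non-clustered protocadherins at 61.5% for H3K27me3 against 18.2% of alpha and 9.09% of gamma genes.

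Genes listed for regulation of the clusters, or for signalling by their proteins, were counted beside the 55.7% of all named genes with H3K27ac in both libraries. All 12 listed genes of looping and promoter choice, among them Ctcf (H3K27ac folds 15.7 and 15.4) and the cohesin subunit Rad21 (14.9 and 12.2), had H3K27ac in both libraries and 0 had H3K27me3 in both. Each of the 8 silencing genes was acetylated in both libraries, including Smchd1 (14.5 and 15.0), a repressor known to act on these clusters. Among them Dnmt1, Dnmt3a, Setdb1 and Wiz also had H3K27me3 in both. Of 11 genes that carry signals from protocadherin proteins, 9 were acetylated in both, such as Ptk2 (14.3 and 17.2), the focal adhesion kinase. Ret and Wasf1 were the others, with H3K27me3 of 3.80 and 3.81 at Ret.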

How the data were processed

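ChIP-seq peak lists of 8 libraries were used, 2 per antibody, grouped by antibody as labelled. The genome build was mm10 and the tools were MACS2 2.1.1.20160309, BWA 0.7.12, Trim Galore 0.4.3 and bcl2fastq 2.17, per the submitters' processing notes. Not given in the sources used here are the peak-calling options, duplicate handling and the controls. Some deposited peak names hold the word combined, so pooling in those lists cannot be told apart from single libraries. Values are the authors' deposited fold enrichment (a ratio) and their −log10 q-value, with q up to 0.0986 in the histone lists and 0.00981 in the RING1B and CBX8 lists. Depth is unknown.

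Genes, distances and annotations came from the authors' columns, and extents and biotypes from RefSeq (GRCm38.p6). A promoter peak lies within 2000 bp of the annotated start, and the highest fold was taken. Overlap required 1 bp. Shares of bases used merged peaks. Interval functions were tested on simulated data. Python 3.11.15, numpy 2.4.6, pandas 2.3.3 and matplotlib 3.10.9 were used. No test was run.

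The members and lists were chosen with earlier results of these data known. Named genes were members with both libraries of RING1B and of CBX8 (0 met this), up to 4 per cluster and antibody with the highest fold in the weaker library, the C-type genes, the first and last of each cluster, and 3 neighbours. Alternatives were stricter peaks, other windows, other overlaps and single libraries. Sequences of these genes are not reported here.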

Additional observations from a re-analysis of the deposited data

How the results depend on the processing

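Counts are of genes with a promoter peak in both libraries, and shares are of span bases in both. With peaks of −log10 q of at least 5, H3K27me3 promoters fell to 0 in alpha and 0 in gamma, its alpha share to 0 and its alpha regions away from starts to 0. RING1B alpha fell to 0 promoters and a share of 0, CBX8 to 0 promoters in alpha and in gamma, and H3K27ac gamma to 5 promoters and 8.65%. With folds of at least the list median, H3K27me3 had 1 alpha and 0 gamma promoters, an alpha share of 1.27% and 0 alpha regions away, RING1B 0 alpha and 0 gamma promoters and an alpha share of 0, CBX8 0 and 0 promoters, and H3K27ac a gamma share of 8.79%. A 1000 bp window left 1 H3K27me3 gamma promoter. Bases in either library raised the shares to 3.55% (alpha), 0.0772% (beta) and 5.76% (gamma) for H3K27me3, 0.125% (alpha) and 1.88% (gamma) for RING1B, 1.38%, 0.921% and 0.993% for CBX8, and 0.171% (alpha) and 16.0% (gamma) for H3K27ac. The 5000 bp window, the 5000 bp limit for away regions and overlap with any known start moved 0 of 12 results each. The cause of these changes, beyond fewer or more peaks, was not tested.

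Leaving out each replicate in turn gave promoter counts of 2 to 4 (alpha), 0 to 0 (beta) and 2 to 9 (gamma) for H3K27me3, 1 to 1, 0 to 0 and 1 to 6 for RING1B, 1 to 6, 0 to 2 and 2 to 5 for CBX8, and 0 to 0, 0 to 0 and 11 to 17 for H3K27ac. Shares were 2.60 to 2.70%, 0 to 0.0772% and 0.691 to 5.16% for H3K27me3, 0.0619 to 0.0789%, 0 to 0 and 0.127 to 1.80% for RING1B, 0.0568 to 1.34%, 0 to 0.921% and 0.197 to 0.871% for CBX8, and 0 to 0.171%, 0 to 0 and 12.4 to 13.2% for H3K27ac. Regions away from starts were 3 to 4, 2 to 2 and 0 to 0 for H3K27me3, 0 to 0, 0 to 0 and 0 to 2 for RING1B, 0 to 7, 0 to 12 and 0 to 2 for CBX8, and 0 to 2, 0 to 0 and 0 to 1 for H3K27ac. Taking the promoter peak nearest the start changed 1 of 15 folds, H3K27me3 at Pcdhga2, to a mean of 2.79. No paired analysis was possible because no test over samples was run and equal replicate numbers name the same line and passage only for H3K27me3 with RING1B (replicate 1) and CBX8 with H3K27ac (replicate 2). Depth limits all of these results to an unknown degree.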

Other observations

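Acetylation did not stop at the last gamma start. The strongest H3K27ac peaks inside the gamma span were assigned by the authors to Gm38667, a predicted gene downstream of the Pcdhgc5 start, and so were not counted among the 58 genes. They lay at chr18:37821174-37828206 with a fold of 10.9 in replicate 1 and at chr18:37821847-37828662 with a fold of 12.7 in replicate 2, above 95.5% and 96.7% of all peaks in their lists. RING1B replicate 2 had 2 peaks of fold 4.51 in the same stretch and CBX8 replicate 2 had 1 of fold 5.52. From the end of gamma to the start of Diaph1, the formin gene that follows, H3K27ac covered 24.1% and 26.9% of 93.749 kb, with 20 peaks in each library. The strongest of these away from the Diaph1 promoter had folds of 12.7 (chr18:37879045-37880300) and 13.7 (chr18:37878993-37880295). The Diaph1 promoter itself had 20.1 and 17.5.

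Between beta and gamma, Taf7, which encodes a subunit of the general transcription factor TFIID, had H3K27ac folds of 7.17 in each library, and Slc25a2, a mitochondrial carrier gene, had a RING1B peak of 4.51 in replicate 2 alone. H3K27me3 lay between Taf7 and Pcdhga1 in both libraries, with folds of 2.87 at chr18:37647409-37648153 in replicate 1, and of 2.71 and 2.69 at chr18:37647803-37650230 and chr18:37651264-37652889 in replicate 2. Closer to Pcdhga1, H3K27ac replicate 2 listed a peak of fold 5.71 at −5856 bp from the start, with none in replicate 1. Of the 17 genes listed as neighbours of the clusters, 13 had H3K27ac promoter peaks in both libraries, and 1 had H3K27me3 in both.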
